A study of Homo sapiens with 6 samples.

Results

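The genes described here mostly carry out or drive mitosis. They include mitotic kinases, kinesin motors, kinetochore and centromere proteins, spindle assembly factors, the anaphase-promoting complex, and the condensin and cohesin rings. They were chosen by name alone, as every complete row of the deposited table whose symbol begins with a fixed set of stems such as KIF, CENP, BUB, AURK, ANAPC, SMC and CDCA. The rule gave 120 of 13707 genes and used no measured value, though it was set with earlier results of these data known. Of the 120, 108 had a known role fixed in 14 lists, and 12 shared only the name stem. The lists include 18 transport and other kinesins, so the name mitotic genes, used below for all 120, is only a short form. Total RNA of MDA-MB-231 cells, a line derived from a triple-negative breast cancer, went into 6 mRNA libraries, of which 3 bear the letter C in their titles and 3 the letter K. The study set control cells beside cells exposed to 20 µM colistimethate, a polymyxin prodrug that yields colistin. Since the labels tie neither letter to an arm, every difference below is C minus K and the letters stand for themselves. No allele or further agent is named for either letter and the line is the same throughout. The series' text speaks of 3 repeats without saying whether they were separate cultures, so the tests reflect variation among these libraries, which may be technical.

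In a dividing cell, CDK1 bound to cyclin A or B starts mitosis, and Aurora and Polo-like kinases build the spindle. Kinetochores, assembled on centromeres marked by the histone variant CENP-A, hold chromosomes to spindle microtubules. The checkpoint kinases TTK and BUB1B delay the anaphase-promoting complex (APC/C, a ubiquitin ligase) until every chromosome is attached. Many of these genes are periodic, which means that their RNA peaks late in the cell cycle, through CHR and CCAAT elements in their promoters. Their summed RNA in a culture follows how many cells are dividing, and in bulk RNA fewer dividing cells and less RNA per cell cannot be told apart.

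Depth over the listed genes ran from 31438065 to 35946691 reads per library, of which the 120 genes took between 1.77% and 1.82%. Every pair of libraries differed by more than sampling noise (chi-square per degree of freedom of at least 22.4). Of the markers of this line, AXL, MSN, CD44 and CAV1 were each above 100 TPM (an abundance scaled by gene length and library) in every library, with MSN between 919.7 and 1108. The letters differed in AXL (log2 fold change 0.21, adjusted p = 0.0318) and CAV1 (-0.37, adjusted p = 0.0118), and the part of this in the results below was not tested. The epithelial markers EPCAM and CDH1 were between 4.24 and 6.10 TPM and listed at 0, while the hormone receptors were not analysed here. Summed markers of endothelium and of fibroblasts stayed at or below 1.49 and 3.24 TPM, and the blood marker CD3E was listed at 0. AURKA, BUB1, CDC20, MKI67, FOXM1, KIF11 and other mitotic genes were not analysed here.

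Most of the mitotic genes were expressed, at levels that ranged widely between genes. In TPM, the scale on which genes can be compared, 30 of 120 had a mean above 100, 19 lay below 1, and the median was 40.4. KIFC3, a minus-end-directed kinesin of interphase cells, stood highest at 585 ± 15.3 TPM (SD, n = 6 libraries), above UBE2C, the ubiquitin-conjugating enzyme of the APC/C, at 543 ± 30.7 TPM. PTTG1IP, a securin-binding protein, came next at 349 ± 20.0 TPM. TPX2, the activator of Aurora A on the spindle, was at 310 ± 8.46 TPM, cyclin B1 (CCNB1) at 296 ± 16.1 TPM and the cohesin subunit RAD21 at 295 ± 4.55 TPM, and the ranges of these 3 over libraries overlapped. PLK1, the main Polo-like kinase, was at 252 ± 8.93 TPM. Among the 101 genes with a mean of at least 1 TPM, the coefficient of variation over the 6 libraries had a median of 6.91% and ran from 1.53% to 41.8%. The summed TPM of the 120 genes was 9299 ± 33.5 in C and 9209 ± 70.2 in K (SD, n = 3 each).

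**Figure D1:**
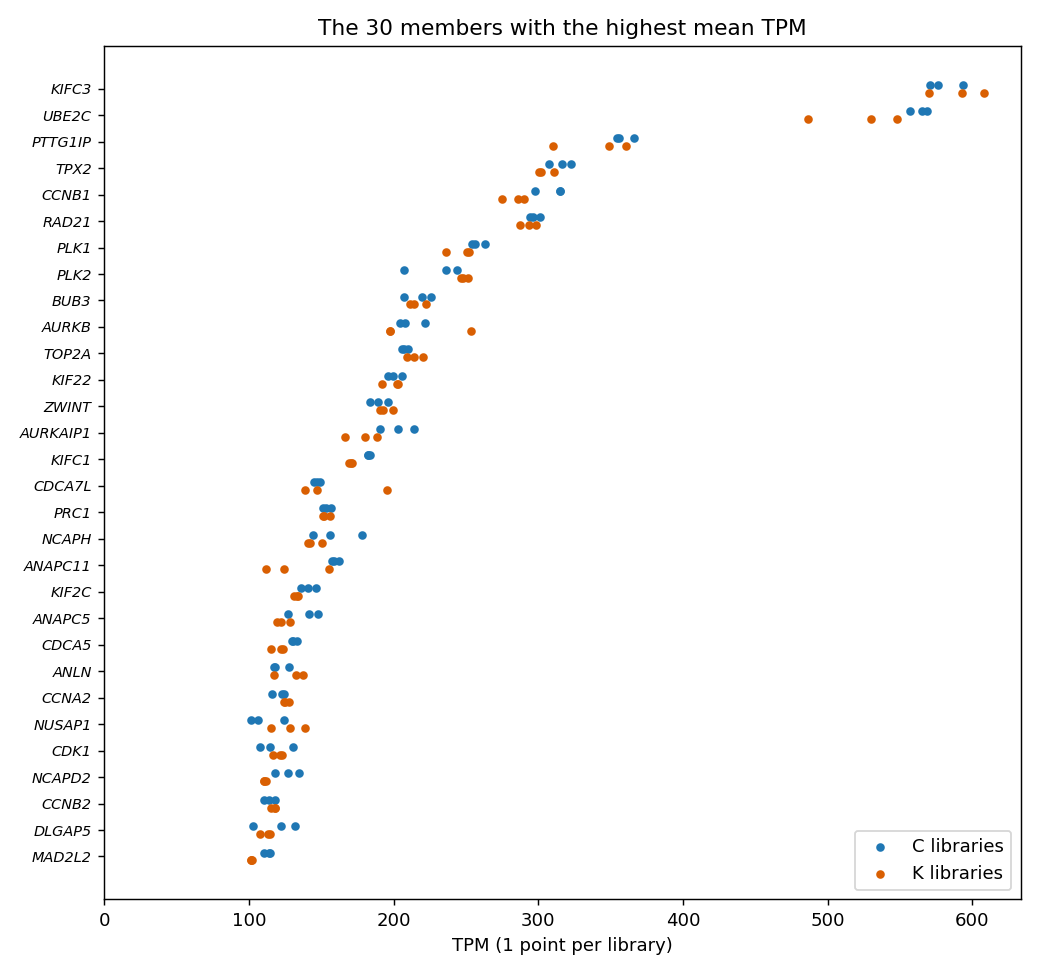
TPM in each library (horizontal axis, linear) of the 30 members with the highest mean TPM; blue points are C libraries and orange points K libraries. KIFC3 and UBE2C stand apart at means of 585 and 543 TPM, and the spread between libraries of a gene is small beside the range between genes.

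Between the letters, 6 of the 106 genes that passed the low-count filter differed at an adjusted p under 0.05 in edgeR's quasi-likelihood test, 5 lower and 1 higher in C. That is 5.66% of the tested mitotic genes against 5.61% of all 9057 tested genes, a share near the background. Among genes in the 14 role lists, 4 of 100 were called. By direction, the background was 3.41% lower and 2.20% higher in C. At an unadjusted p under 0.05 there were 32 of 106, against a background of 27.0%. The median log2 fold change was -0.03, beside -0.0044 over all tested genes, with 63 negative and 43 positive. The C and K libraries did not overlap in CPM (reads scaled to a common library size after TMM normalisation) for 36 of the 106, or 34.0%, against a background of 33.8%. In 22 of them C was lower (background 17.7%) and in 14 it was higher (background 16.1%). Differences were small, as they were over all genes: 101 of 106 lay within 1.25-fold in either direction, against 7751 of 9057 (85.6%). For 79 of 106 (74.5%) the whole 95% interval lay inside 1.25-fold, compared with 51.7% of all tested genes. The median standard error (SE) was also smaller among members, at 0.056 against 0.073 over all tested genes. The remaining 14 genes did not pass the filter, and 6 of them (CENPVL1, CENPVL2, CENPVL3, KIF12, KIF19 and KIF6) had 0 reads in every library.

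The number of calls depended on single libraries, among the mitotic genes and among all genes. It was 12 without K2, where the background was 5.84%. It was 0 without C1 (background 0.842%), without C2 (1.27%) or without K1 (1.28%), 1 without K3 (1.08%) and 2 without C3 (1.19%). DESeq2 called 16 of the 104 genes to which it gave an adjusted p (15.4%, background 12.4%), 5 higher and 11 lower in C. Over all genes its 1039 calls were 526 higher and 513 lower in C.

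CENPK, a subunit of the constitutive centromere network that anchors the kinetochore, had the largest change among called genes with a kinetochore role. It lies on chromosome 5, 65517766 to 65563171 (GRCh38). C1, C2 and C3 held 35.0, 38.6 and 41.4 CPM, and K1, K2 and K3 held 51.7, 53.3 and 53.2 CPM. Every C library was below every K library, at a mean of 38.3 ± 3.21 against 52.75 ± 0.877 CPM (SD, n = 3). Here and in the called genes below, such separation is largely a result of their choice by the test and adds no support. The log2 fold change was -0.46 (SE 0.068, adjusted p = 0.0226), and the call held only without C3 or without K2 when libraries were left out in turn (adjusted p between 0.0383 and 0.0904).

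SGO2, a shugoshin that protects cohesin at centromeres (chromosome 2, 200510008 to 200583782), was at 78.6, 84.2 and 79.3 CPM in C1 to C3 and at 100.2, 92.5 and 101.5 CPM in K1 to K3. The letters did not overlap, and K2 was the K library closest to C. Its log2 fold change was -0.28 (SE 0.051, adjusted p = 0.0347). The call was kept only when K2 was the library left out, with adjusted p up to 0.126 otherwise. SGO2 exons overlap the gene KCTD18 on the other strand, and the use of strand in counting is not given. Such an overlap is common, found in 45 of the 120 members.

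DLGAP5 stabilises the microtubule fibres that end on kinetochores (chromosome 14, 55148112 to 55191678). In CPM it was at 207, 213 and 204 in C and at 241, 233 and 242 in K, again without overlap (log2 fold change -0.20, SE 0.033, adjusted p = 0.0298). The call was lost in every leave-one-out fit except that without K2 (adjusted p up to 0.114). The deposited TPM did not show this difference. In TPM, C1, C2 and C3 were at 122, 132 and 103 and K1, K2 and K3 at 113, 108 and 114, so the letters overlapped and the log2(TPM + 1) difference was 0.08 (limma, adjusted p = 0.607). Why counts and TPM differ for DLGAP5 was not tested.

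MISP and MAD2L2 entered by name stem only. MISP, an actin-bundling protein that helps position the spindle (chromosome 19, 751126 to 764318), was scarce, at 5.13, 5.004 and 7.16 CPM in C and 10.6, 11.9 and 9.33 CPM in K. All C libraries lay below all K libraries, and the log2 fold change was -0.88 (SE 0.17, adjusted p = 0.0424). Leaving out any library except C3 lost the call, with adjusted p up to 0.135. MAD2L2 is a subunit of a translesion DNA polymerase and of the shieldin complex and can bind APC/C activators (chromosome 1, 11674480 to 11691650). It was the only called gene that was higher in C, at 91.5, 87.75 and 89.2 CPM against 78.9, 80.7 and 79.2 CPM. Its log2 fold change was 0.17 (SE 0.034, adjusted p = 0.0449), with no overlap, and no leave-one-out fit kept the call (adjusted p between 0.0568 and 0.150).

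**Figure D2:**
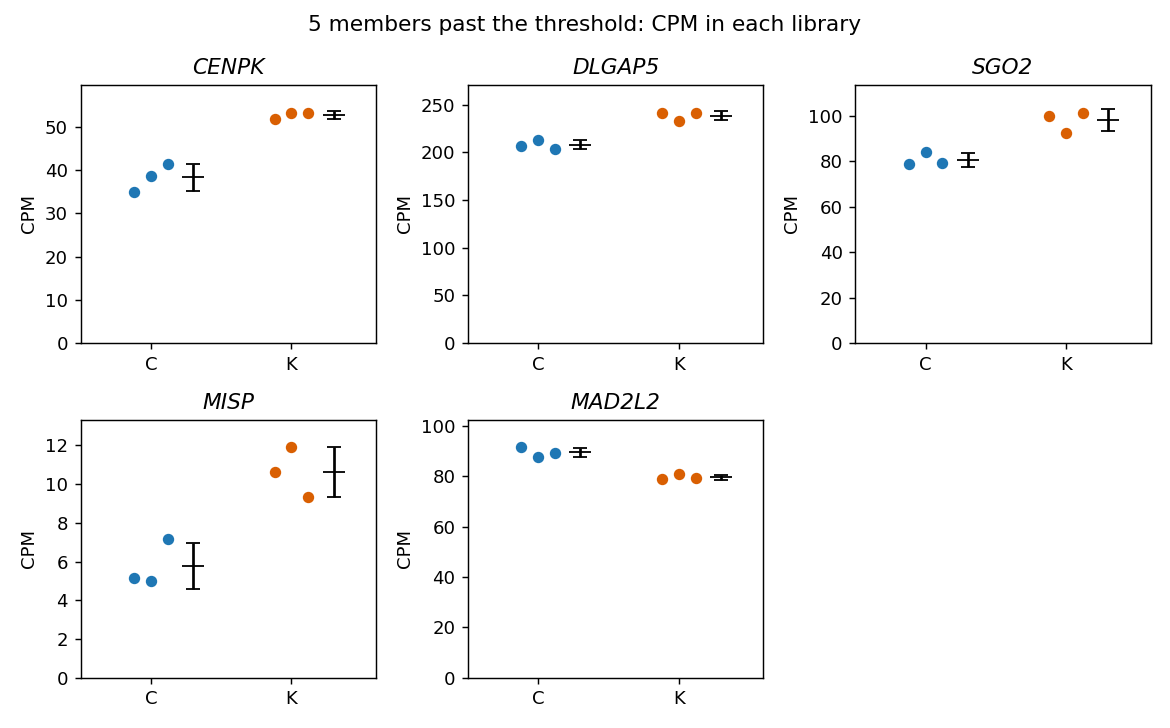
CPM in each library (points) of 5 of the 6 members past the threshold, with the mean and SD over 3 libraries in black at the right of each group; each vertical axis starts at 0. In all 5 the C and K points do not overlap, and MAD2L2 alone is higher in C. The genes were picked by the test of C against K, so this separation is largely a result of the choice. Over all tested genes, 33.8% do not overlap.

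Promoters were compared because periodic genes are known to share promoter elements. RefSeq promoters (GRCh38.p14) were matched by symbol for 103 of the 120 genes, and the 250 bases before the start were searched on both strands for TTTGAA, the core form of the CHR element, for its rarer variant TTCGAA, and for CCAAT. The TTTGAA core was present in 21 of 45 promoters of periodic genes (46.7%), in 4 of 58 promoters of the other members (6.90%) and in 3704 of 27305 promoters in all (13.6%). CCAAT was in 75.6% of periodic promoters, 44.8% of the others and 33.04% of all. TTCGAA was rare, in 2 of 45 periodic promoters (4.44%), 0 of 58 others and 1.201% of all. The label periodic came from textbook knowledge and not from these libraries. These motifs are short, no overlap between them was counted apart, and a match is a description of letters. By expression, 2 of 49 tested periodic genes (4.08%) and 4 of 57 others (7.02%) were called, against 5.61% of all tested genes. Median log2 fold changes of periodic and other members were -0.05 and -0.03.

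The following promoters show this range, with matches in capitals. DLGAP5 (chr14:55191586-55191835, minus strand) has TTTGAA on both strands, the leftmost bases lying 138 and 109 bases before the start, and CCAAT at 87 and 22 bases. CENPK (chr5:65563169-65563418, minus strand) has 3 CCAAT matches and no CHR core. SGO2 (chr2:200525892-200526141, plus strand), periodic, and MAD2L2 (chr1:11691560-11691809, minus strand), the called gene that was higher in C, have no match. CCNB1 (chr5:69166900-69167149, plus strand), the most abundant cyclin here and not called, has 2 CCAAT matches. RefSeq starts can differ from the ends of the gene models in the deposited table.
DLGAP5: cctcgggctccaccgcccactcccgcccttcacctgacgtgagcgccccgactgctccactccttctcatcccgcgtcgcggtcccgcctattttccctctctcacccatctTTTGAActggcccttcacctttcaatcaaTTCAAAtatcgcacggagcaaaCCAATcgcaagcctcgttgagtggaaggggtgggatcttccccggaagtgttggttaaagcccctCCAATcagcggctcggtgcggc
CENPK: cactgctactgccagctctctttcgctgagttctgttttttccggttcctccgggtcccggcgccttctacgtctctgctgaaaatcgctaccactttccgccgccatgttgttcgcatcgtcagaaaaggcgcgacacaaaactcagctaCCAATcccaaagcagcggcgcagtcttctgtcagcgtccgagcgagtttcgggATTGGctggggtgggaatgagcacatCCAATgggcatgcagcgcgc
SGO2: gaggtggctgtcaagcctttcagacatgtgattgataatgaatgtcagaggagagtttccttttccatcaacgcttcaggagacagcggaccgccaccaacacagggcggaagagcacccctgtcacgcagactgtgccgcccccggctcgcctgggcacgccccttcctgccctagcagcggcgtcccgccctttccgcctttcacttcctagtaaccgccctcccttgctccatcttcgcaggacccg
MAD2L2: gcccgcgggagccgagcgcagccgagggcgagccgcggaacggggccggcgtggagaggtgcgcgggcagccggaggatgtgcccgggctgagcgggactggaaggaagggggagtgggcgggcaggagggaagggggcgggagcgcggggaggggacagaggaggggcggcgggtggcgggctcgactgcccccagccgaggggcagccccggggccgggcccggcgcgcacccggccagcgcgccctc
CCNB1: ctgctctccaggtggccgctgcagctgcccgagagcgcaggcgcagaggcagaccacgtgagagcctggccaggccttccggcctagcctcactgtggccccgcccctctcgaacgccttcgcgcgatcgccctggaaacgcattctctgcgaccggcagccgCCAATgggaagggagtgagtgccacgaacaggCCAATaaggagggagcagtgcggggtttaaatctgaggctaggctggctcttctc

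Kinases and their cyclins did not differ past the threshold. For the role lists below, background shares were 5.61% called by edgeR, 12.4% by DESeq2 and 27.0% at an unadjusted p under 0.05. Of 8 tested mitotic kinases 0 were called by edgeR or by DESeq2, with a median of -0.09 and 1 gene (TTK) at an unadjusted p under 0.05. PLK1 was at 397, 397 and 406 CPM in C1 to C3 and 394, 388 and 378 CPM in K1 to K3, a log2 fold change of 0.05 with a 95% interval from -0.02 to 0.12. Every C library was above every K library, by a margin that did not pass the test. BUB1B, a checkpoint kinase, was level between the letters, with a log2 fold change of 0.00 and an interval from -0.07 to 0.07. For CDK1 itself the interval ran from -0.22 to 0.11. TTK, the kinase that starts checkpoint signalling, had the smallest p of the list (log2 fold change -0.15, adjusted p = 0.174), and its C and K libraries overlapped. Among 7 cyclins and CDC25 phosphatases 0 were called by either tool, 1 had an unadjusted p under 0.05, and every 95% interval lay inside 1.25-fold. CCNB1 was at 428, 429 and 439 CPM in C and 384, 428 and 401 CPM in K (a log2 fold change of 0.09, adjusted p = 0.231). CDC25A, a phosphatase that activates CDKs, was at 0.17 (adjusted p = 0.155), with the C libraries above the K libraries. Of the 7 genes of this list, 4 did not overlap (57.1%, background 33.8%), with C higher in 1 and lower in 3. The 7 log2 fold changes were 4 positive and 3 negative, with a median of 0.02.

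For the APC/C and its partners, 6 of 7 log2 fold changes were positive, with a median of 0.08. In edgeR 0 were called, with 2 at an unadjusted p under 0.05, and DESeq2 called 1 (ANAPC2). UBE2C was at 333, 331 and 328 CPM in C against 319, 319 and 300.1 CPM in K (a log2 fold change of 0.08, adjusted p = 0.193). The scaffold subunit ANAPC2 had the smallest p (0.16, adjusted p = 0.0871). ANAPC11, the RING subunit, had the largest difference of this list (0.28, adjusted p = 0.205), with K2 at 76.7 CPM beside 54.7 and 60.9 CPM in K1 and K3. Without K2 it was called (0.42, adjusted p = 0.0347). In the spindle checkpoint list, ZWINT and BUB3 were at -0.05 and -0.02, ZW10 and MAD2L1BP at 0.01 and -0.01, and all 4 intervals lay inside 1.25-fold, with 0 called by edgeR or DESeq2 and 0 at an unadjusted p under 0.05.

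The kinetochore and centromere list, with 22 tested genes, held 2 calls (9.09%, background 5.61%), both lower in C and CENPK among them. It had 15 negative and 7 positive values (median -0.08). NDC80, which binds microtubules directly, was at 137, 144 and 135 CPM in C and 152, 150.2 and 155 CPM in K (a log2 fold change of -0.14, adjusted p = 0.0860). CENPF, a large coat protein of the kinetochore, was at -0.22 (adjusted p = 0.0825), with every C library below every K library. CENPJ, a centriole assembly factor in spite of its name, was at -0.29 (adjusted p = 0.0967). CENPW, the most abundant gene of the list at 99.1 TPM, was at 0.05 in counts and -0.11 in log2(TPM + 1), neither past the threshold. In 2 genes of the list 1 library stood apart from the others of its letter. CENPX, a histone-fold protein, was at 45.3, 43.5 and 45.8 CPM in C but at 72.0, 81.6 and 36.4 CPM in K (a log2 fold change of -0.50, adjusted p = 0.304), and without K3 the value was -0.78 (adjusted p = 0.0165). MIS12, of the complex that bridges centromere and microtubules, was at 31.9, 76.8 and 29.2 CPM in C and 36.9, 35.8 and 38.2 CPM in K. Its log2 fold change of 0.31 turned to -0.28 without C2, and neither was called. The exons of CENPX and MIS12 overlap genes on the other strand (LRRC45 and DERL2), as do those of many other members. In the chromosomal passenger complex, 2 non-catalytic subunits had every C library above every K library without passing the threshold in edgeR: CDCA8 at 0.14 (called by DESeq2, edgeR adjusted p = 0.0614) and INCENP at 0.15 (adjusted p = 0.160). The other subunits, Aurora B (AURKB) and survivin (BIRC5, outside the name stems), were at -0.03 (adjusted p = 0.869) and -0.13 (adjusted p = 0.376).

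None of the kinesins passed the threshold in edgeR, with 0 of 11 mitotic and 0 of 12 other kinesins called. Of these 23, 7 had an unadjusted p under 0.05 (background 27.0%). DESeq2 called KIF20B and KIF9. KIF20B, which acts in cytokinesis, was at 112.5, 125 and 111 CPM in C and 146, 130.3 and 146 CPM in K (a log2 fold change of -0.27, adjusted p = 0.0640). KIF14 and KIF15 were at -0.16 and -0.19 with the same order of letters, whereas KIFC1, which clusters spindle poles, was at 0.09 with all C libraries above all K libraries. KIF22, a chromosome-arm motor and the most abundant mitotic kinesin here at 200.8 TPM in C and 199 TPM in K, was at 0.01. KIF9, a kinesin of motile cilia, had the lowest value of the other kinesins at -0.57 (SE 0.13, adjusted p = 0.0549), from 4.35, 5.18 and 5.34 CPM in C and 6.59, 7.44 and 7.998 CPM in K. With limma on log2(TPM + 1) KIF9 passed (-0.73, adjusted p = 0.0479). Its exons overlap KLHL18 and KIF9-AS1 on the other strand. KIFC3 was level, at 1019, 1001 and 1049 CPM in C against 1011, 1089 and 1036 CPM in K.

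Among 8 spindle assembly and cytokinesis genes, 1 fell (DLGAP5) and 7 values in all were negative, with a median of -0.13. ASPM, a spindle pole protein, was at -0.22 (adjusted p = 0.0648) and NUSAP1, a microtubule bundler, at -0.21 (adjusted p = 0.171), while TPX2 and PRC1, which bundles the central spindle, were at 0.03 and -0.03. The median deviation of this list from each gene's own mean, in log2 CPM, was -0.09, 0.03 and -0.12 in C1, C2 and C3 and 0.10, -0.01 and 0.12 in K1, K2 and K3. C2 was thus above K2 and the letters overlapped. NUSAP1 and PRC1 share 50.3% and 47.8% of their 75-base windows with overlapping gene models, so their counts are uncertain.

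Condensin, which compacts chromosomes, and cohesin, which holds sister chromatids, had medians of opposite sign. Their tested genes had median GC contents of 50.1% and 40.5%, and their medians with a GC offset are given below. In condensin 0 of 4 genes were called by edgeR (median 0.09), while NCAPD2 and NCAPH2 were called by DESeq2 and had an unadjusted p under 0.05. NCAPD2 was at 485, 471 and 509 CPM in C and 433, 436 and 446 CPM in K (a log2 fold change of 0.16, adjusted p = 0.0572), and NCAPH2, of condensin II, was at 0.27 (adjusted p = 0.0832). NCAPH, the most abundant condensin subunit here at 152 TPM, was at 0.02. Of 8 cohesin genes and protectors 1 fell (SGO2), with a median of -0.11. SMC3, a core ring subunit, was at 277, 293 and 271 CPM in C and 327, 307 and 328 CPM in K (a log2 fold change of -0.20, adjusted p = 0.0564), while RAD21 was at -0.01 with an interval from -0.08 to 0.06. SMC5 and SMC6, of the DNA repair ring, were at -0.12 and -0.10 and were not called. TOP2A, which untangles DNA and marks proliferating cells, was at 865, 877 and 874.5 CPM in C and 914, 895 and 928 CPM in K. The letters did not overlap, but the difference was small (log2 fold change -0.06, interval from -0.13 to -0.0036, adjusted p = 0.168). CDCA7, a chromatin factor, and CDCA7L were at -0.20 (adjusted p = 0.182) and -0.07. Of the name-only genes besides MISP and MAD2L2, CCNB1IP1, a ubiquitin ligase of meiotic crossovers, had the largest value (0.23, adjusted p = 0.251), with C2 at 45.7 CPM and the other C libraries at 36.8 and 36.2 CPM.

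**Figure D3:**
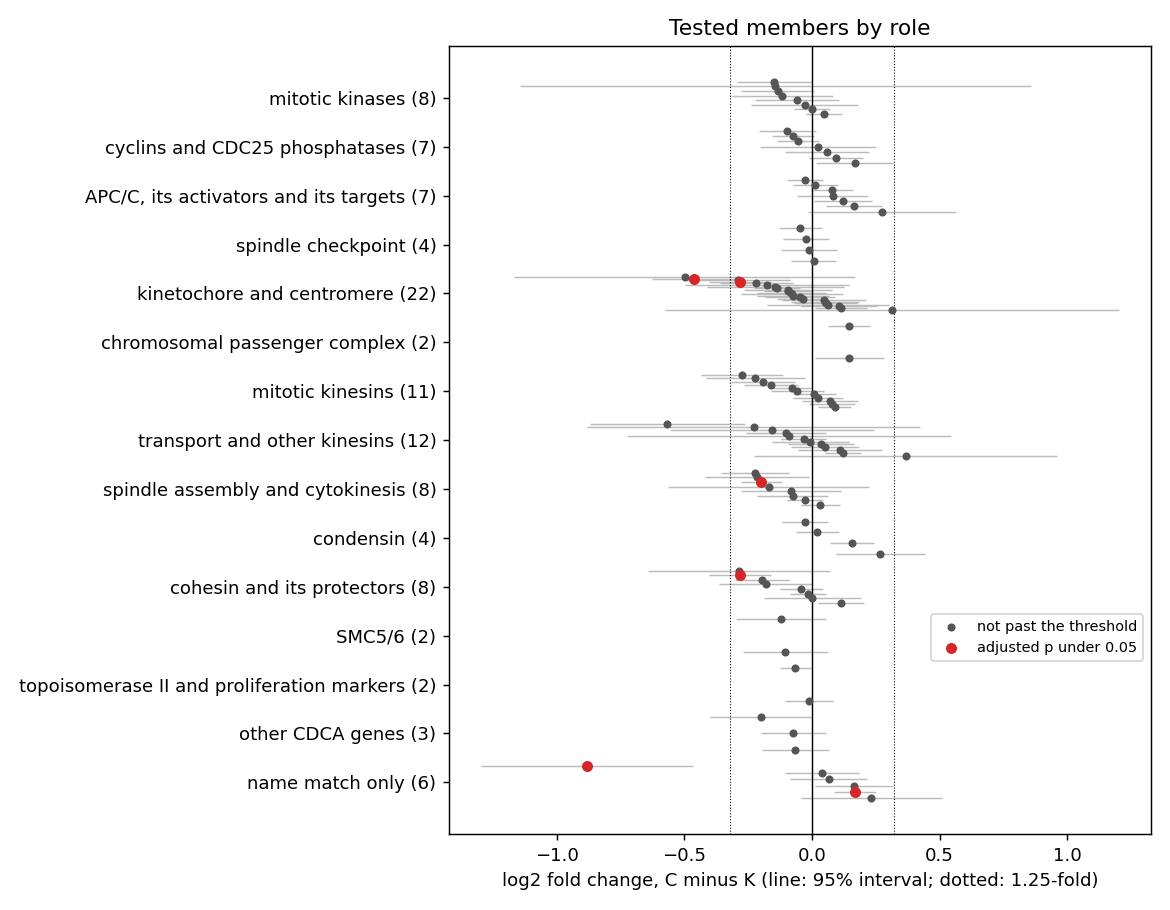
Log2 fold change (C minus K) of the 106 tested members by role, with the number of tested genes in brackets; grey lines are 95% intervals, red points are the 6 genes past an adjusted p of 0.05 and dotted lines mark 1.25-fold. Points of every role cluster near 0, and 101 of 106 lie between the dotted lines.

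Within the mitotic genes, the difference varied with base composition. The Spearman correlation of log2 fold change with the GC content of the longest transcript was 0.40 over 106 members, beside 0.25 over 9048 tested genes. Genes share libraries, so these are descriptions and carry no p. Of the 53 members with the lower GC content (32.9% to 46.4%) 41 were negative, and of the 53 others 22 were. CENPK, at 32.9% GC, and SGO2 and DLGAP5, at 34.7% and 38.4%, belong to the first. An offset for GC content and length, fitted over all genes, removes by construction the trend with GC content that all genes share. With it, the median of the lower-GC members went from -0.08 to -0.01 and that of the others from 0.03 to 0.00. Medians of the cohesin, kinetochore and spindle assembly lists went from -0.11 to -0.03, -0.08 to -0.02 and -0.13 to -0.06. Condensin went from 0.09 to 0.07, the mitotic kinases from -0.09 to -0.08 and the transport and other kinesins from -0.02 to -0.04. MISP alone was then called, or 1 of 106 against a background of 5.08%. The log2 fold change of CENPK went from -0.46 to -0.31 (adjusted p = 0.0856), that of SGO2 from -0.28 to -0.15 (adjusted p = 0.102) and that of DLGAP5 from -0.20 to -0.10 (adjusted p = 0.0797). MAD2L2 went from 0.17 to 0.13 (adjusted p = 0.0785). Whether GC content reflects library chemistry or the genes themselves was not tested.

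**Figure D4:**
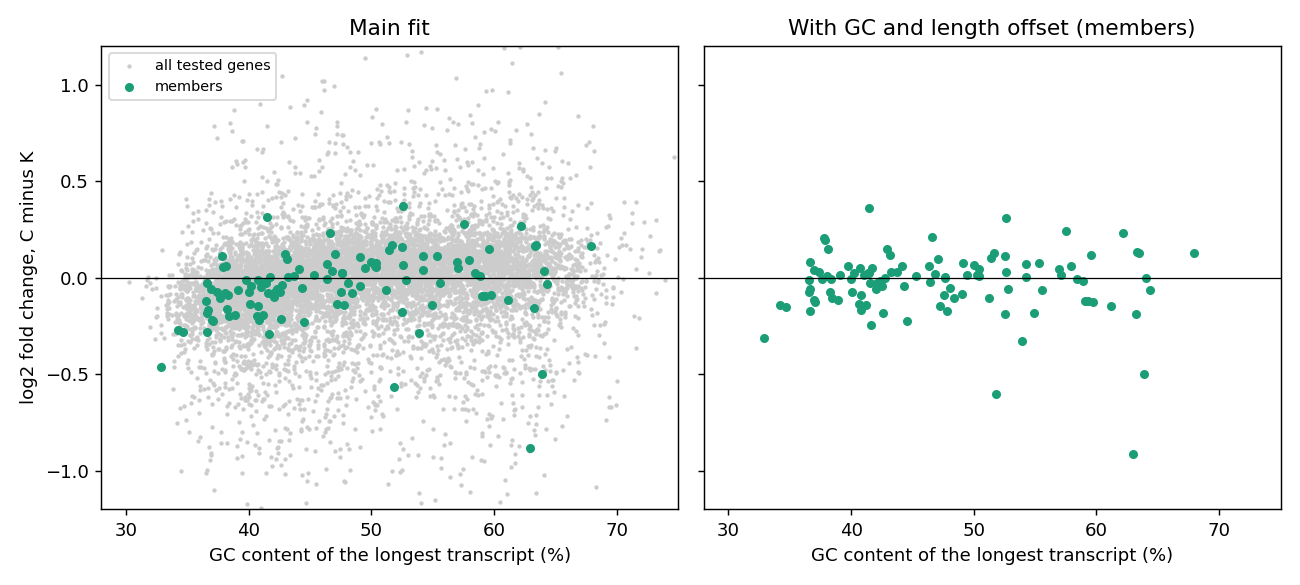
Log2 fold change (C minus K, vertical axis, cropped) against the GC content of each gene's longest transcript (%). Left, the fit without an offset, with members in green over all tested genes in grey; right, members with the GC and length offset. The first panel rises from left to right (Spearman 0.40 over members). In the second, the medians of the lower-GC and higher-GC members are -0.01 and 0.00, and no correlation was calculated for it.

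Other mitotic genes are not reached by the name stems. Of a list of 52 symbols, in which HASPIN also stood under its former symbol GSG2, 41 were in the table and tested. Of the 41, 2 were called higher and 1 lower in C (background 2.20% and 3.41%), with a median of -0.06. UBE2S, the ubiquitin-conjugating enzyme that extends chains for the APC/C, was at 378 ± 5.62 TPM in C and 325 ± 12.3 TPM in K (log2 fold change in counts 0.21, SE 0.043, adjusted p = 0.0482). MAD1L1, which recruits MAD2 to kinetochores, was also higher (0.20, adjusted p = 0.0449), and NEK6, a mitotic NIMA-related kinase, was lower (-0.22, adjusted p = 0.0192).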

How the data were processed

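The authors deposited 1 table with counts, TPM and FPKM per gene and library, per the file headers. The deposited FPKM was not used. Read processing used HISAT2 2.1.0, StringTie 1.3.3b, Trimmomatic and FastQC 0.11.2 and the build GRCh38, also written hg38, per the submitters' processing notes. Which tool counted reads, with what annotation, and whether by strand is not given in the sources used here. The table held 13707 complete genes and 1 incomplete row. Per library, its TPM made up 67.1% to 67.9% of the full scale, so library totals are sums over listed genes.

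Deposited counts of all genes were tested with edgeR 4.0.16 (R 4.3.3, limma 3.58.1, DESeq2 1.42.0): filterByExpr (minimum count 10, minimum total 15), TMM (factors 0.993 to 1.01), quasi-likelihood test of C against K without covariate, Benjamini-Hochberg adjustment over 9057 genes at 0.05. SE is the size of the log2 fold change divided by the square root of F. The fit was checked on simulated counts. Members, role lists and tests were chosen with earlier results of these data known. Named genes were all calls but 1, which is not reported here, the 5 highest and 5 lowest values at a mean TPM of at least 1, and per role the smallest p and the highest TPM. Other members named were chosen after their values were seen. GC content, length and shared 75-base windows came from GENCODE 29. TPM was tested with limma on log2(TPM + 1), which understates changes of low genes.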

Additional observations from a re-analysis of the deposited data

How the results depend on the processing

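Calls rested on the fit and on single libraries. Over all genes the count was 508, with 25 under a replicate block, 1039 with DESeq2, 279 and 265 with limma on log2(TPM + 1) and log2(TPM + 0.1), 460 with the GC and length offset, 21 with that offset and the replicate block, and 77 to 533 when 1 library was left out. Among mitotic genes the count was 6, with 0 under the replicate block, 16 with DESeq2, 2 and 1 with the limma fits, 1 with the offset, 0 with the offset and the block, and 0 to 12 without 1 library. The labels state no pairing by replicate number. Deviations of same-numbered libraries correlated at -0.08, -0.04 and -0.09 across genes, and no library correlated best with its own number. With 3 libraries per letter, these correlations cannot exclude a batch shared by number. A call lost under the block is not by itself a weaker effect. The median log2 fold change of members (-0.03) was 0.0052 and 0.0053 with the limma fits, -0.0063 with the offset and -0.0065 with the offset and the block. It ran from -0.04 to -0.03 without 1 library. The median over all genes moved as well, from -0.0044 to 0.0166 with limma on log2(TPM + 1) and to 0.0029 with the offset. The member median was below it in each of these fits. Of 560 values for the 35 genes of the naming rule, 467 kept direction and side of the threshold, 57 fell below it, 16 newly passed it and 20 turned direction. Only the 6 genes called in the main fit could fall below it. The 57 are therefore most of the values of those 6 genes, and the calls were not stable. The other genes had no call to lose.

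Direction changed for some named genes that were mostly near 0. With limma at pseudocounts of 1 and 0.1, BUB3 was at 0.01026 and 0.0103, CENPW at -0.11 and -0.12, DLGAP5 at 0.0847 and 0.0853 (adjusted p = 0.607 with the first) and RAD21 at 0.0206 and 0.0207. With the offset, without and then with the block, BUB3 was at 0.0247 and 0.0242, KIF22 at -0.02003 and -0.02005, RAD21 at 0.0478 and 0.0481 and TOP2A at 0.0129 and 0.0128. Leaving out 1 library gave -0.0472 to 0.0046 for BUB3, -0.0131 to 0.0284 for KIF22 and -0.28 to 0.56 for MIS12. The cause was not tested. In 100 bases before the start, TTTGAA was in 33.3% of periodic, 1.72% of non-periodic and 4.64% of all promoters. In the same order, CCAAT was in 64.4%, 34.5% and 18.7%, and TTCGAA in 4.44%, 0% and 0.333%. A shorter window can only keep or lower a share. The 3 libraries per letter limit the precision: the median SE of a member's log2 fold change was 0.056.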
